A study of Arabidopsis thaliana with 2 samples.

Results

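Enzymes of lower glycolysis, and enzymes that decide what becomes of pyruvate, are described here through 10 genes of Arabidopsis thaliana. They were chosen by locus as TPI (AT3G55440), GAPC2 (AT1G13440), the pyruvate kinase genes AT5G08570, AT5G63680, AT5G56350, AT3G04050 and AT3G25960, PPDK (AT4G15530), LDH1 (AT4G17260) and PDC2 (AT5G54960). Each had 1 probe set, the group of short probes that reads 1 transcript on the array, which the array annotation pairs with that gene alone. They are 10 of 13355 genes with such a probe set.

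Glycolysis splits sugar phosphates and oxidises them to pyruvate, and it makes ATP without oxygen. When respiration is limited, plant cells keep glycolysis running by turning pyruvate into ethanol or lactate, which returns NAD+ to the pathway. Pyruvate kinase makes pyruvate and ATP from phosphoenolpyruvate, whereas pyruvate orthophosphate dikinase (PPDK) can run in either direction between the same compounds and uses pyrophosphate when it makes pyruvate.

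The cells were protoplasts, leaf cells without walls, prepared from mesophyll, the photosynthetic tissue of the leaf. They came from leaves pooled over 36 plants and were divided between both treatments. No genotype or ecotype is given in the labels. Both groups share protoplast isolation and 6 h in mannitol buffer under the same stated light. Control cells lay 0.6 mm deep in 10 ml of buffer in a dish, and hypoxic cells lay 25 mm deep in 2 ml in a tube, so at equal cell numbers the hypoxic cells were also 5.0 times denser. Vessel, depth, crowding, the light that reached the cells and oxygen supply therefore cannot be told apart. Each treatment has 1 array, labelled as replicate 1, so no value here has an SD, a test or a replicate check, and all differences describe these 2 arrays.

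Intensities are printed as deposited, on a linear scale. A ratio is the log2 of hypoxia over control after the arrays were scaled to equal medians, and a gene counts as measured when it lay above a floor intensity of 165.7 on at least 1 array. Median intensities were 345.2 (control) and 334.2 (hypoxia), and 7972 genes were measured. Of 8 listed mesophyll markers 5 had a usable probe set. All 5 were well above the floor on both arrays, with intensities from 4958.2 to 35119 in control and from 12150.2 to 57111.2 in hypoxia.

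Of the 10 genes, 8 were measured, and all 8 lay above the floor on both arrays. PPDK was at least 2-fold higher in hypoxia and the pyruvate kinase gene AT5G08570 was at least 2-fold lower. The other 6 stayed within 2-fold. The share of genes at least 2-fold higher was 13.0% over all measured genes and that at least 2-fold lower was 14.5%, against 12.5% in each direction among the 8, so the number of genes past 2-fold was close to that background. The median ratio of the 8 was 0.005, beside -0.07 for all measured genes. Around it the single ratios spread from -1.02 to 1.59.

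**Figure D1:**
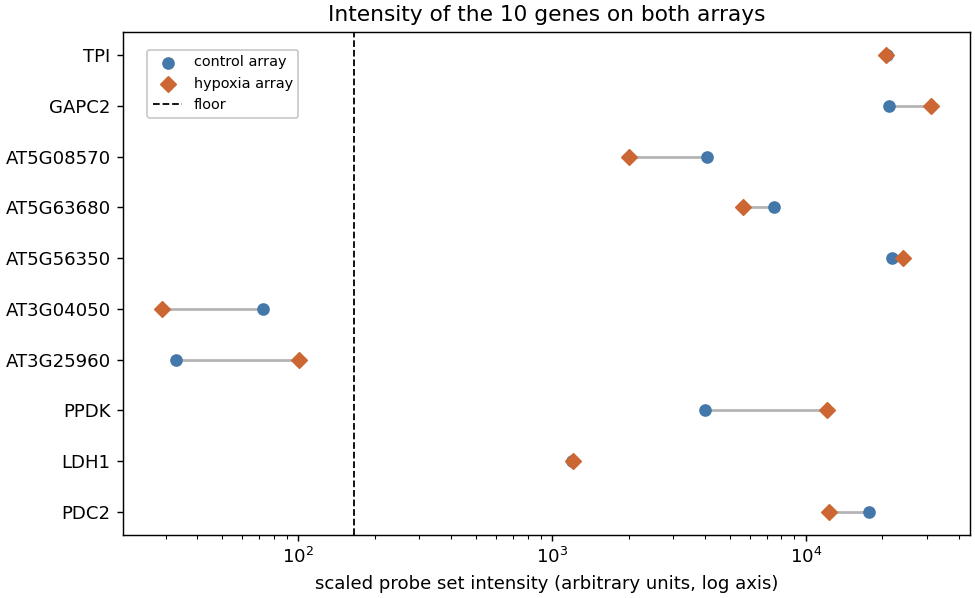
Scaled probe set intensity of the 10 genes on a log axis, with 1 point for the control array and 1 for the hypoxia array, and the floor of 165.7 as a dashed line. PPDK and AT5G08570 have the widest gaps among the 8 genes right of the floor, in opposite directions, and AT3G04050 and AT3G25960 lie left of it on both arrays. Probe sets differ in binding strength, so levels are to be compared within a row only.

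The 2 enzymes that come before phosphoenolpyruvate stayed within 2-fold, except GAPC2 with reference gene centring, at 1.16. TPI, triose phosphate isomerase, which interconverts both triose phosphates, went from an intensity of 21122.7 under control conditions to 20335.4 under hypoxia, a ratio of -0.01. GAPC2, a cytosolic glyceraldehyde-3-phosphate dehydrogenase that carries out the oxidation step of glycolysis, went from 21602.5 to 30597, a ratio of 0.55 or 1.46-fold. It was the highest of the 5 measured glycolytic genes among the 10, and its ratio lay above those of 76.3% of measured genes. GAPC2 exceeded TPI by 0.56 on the log2 scale, and by between 0.50 and 0.56 under all 11 processing settings. Most of these settings cannot change such a difference.

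Further values came from the 5 manufacturer's control probe sets labelled GAPDH, which entered no gene result. By their names they read different parts of a transcript, so they are not 5 independent readings. All 5 were higher in hypoxia, with ratios from 0.18 to 0.43 and a median of 0.39, below the 0.55 of GAPC2, although with hybridisation control centring all 5 lay below 0 and GAPC2 at 0.05. The annotation does not say which gene or genes they read, and both kinds of probe set share the same RNA samples and arrays.

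The measured pyruvate kinase genes did not move as a block. AT5G08570 went from 4134.5 to 1976.2, a ratio of -1.02, or 2.03-fold lower. AT5G63680 went from 7593.4 to 5552.9, a ratio of -0.40, and AT5G56350 from 22249.7 to 23651.7, a ratio of 0.13. The hypoxic array was thus lower for the first pair and slightly higher for the third gene, except that AT5G63680 lay at 0.20 with reference gene centring and that AT5G56350 lay below 0 with quantile normalization, loess and hybridisation control centring.

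AT5G56350 and AT5G08570 differed by 1.15 in their ratios, or 2.22-fold. Over all 11 settings this gap was 0.88 to 1.15, and it fell below 2-fold with quantile normalization and loess. For scale, in 74 genes read by 2 probe sets the ratios had a probe set SD of 0.34, which gives 0.49 for a difference between probe sets. That SD covers the probes and not the cells. In 54 of the 74 genes both probe sets gave ratios of the same sign. The gap of 0.56 between GAPC2 and TPI was little larger than this 0.49. Whether the probes of 1 pyruvate kinase gene also bind transcripts of another was not tested.

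The remaining pyruvate kinase genes gave little signal or could not be read singly. AT3G04050 had intensities of 73.5 and 28.5, and AT3G25960 of 33.6 and 99.1, in control and hypoxia respectively, all under the floor. No ratio is given for them. With a lower floor, at the 20th percentile, AT3G04050 came out at least 1.56-fold lower, its hypoxia value being the bound, and AT3G25960 at least 2.17-fold higher, bounded by its control value. A further listed gene, AT4G26390, was also under the floor, at 26.1 and 22.6. A probe set shared by AT3G52990 and AT2G36580 went from 7681 to 6800.6, a ratio of -0.13, and one shared by AT3G55810 and AT3G55650 was under the floor at 3 and 11. These shared probe sets were looked up after the other values had been seen.

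PPDK stood apart from the pyruvate kinase genes. It went from 4079.1 to 11928.1, a ratio of 1.59 or 3.02-fold, above those of 94.8% of measured genes. Arabidopsis makes a plastid and a cytosolic form of the enzyme from this 1 gene, and the probe set's value is not assigned to either form here. Its ratio exceeded that of AT5G56350 by 1.46, that of AT5G63680 by 2.00 and that of AT5G08570 by 2.61 on the log2 scale. A single scaling factor per array cancels in such differences. Under all 11 settings PPDK had the highest ratio of the 8 genes and AT5G08570 the lowest, and the gap between them stayed between 2.49 and 2.61. Only quantile normalization, loess and 16 added in place of a floor could change that order or gap. The other floors and probe set choices left both ratios as they were.

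PPDK was also at least 2-fold higher under every one of these settings, with ratios from 1.09 to 2.20. AT5G08570 lay below 0 in all 11, from -1.52 to -0.41, and was at least 2-fold lower in 8 of them. It came within 2-fold at -0.98 with quantile normalization, -0.94 with loess and -0.41 with reference gene centring.

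**Figure D2:**
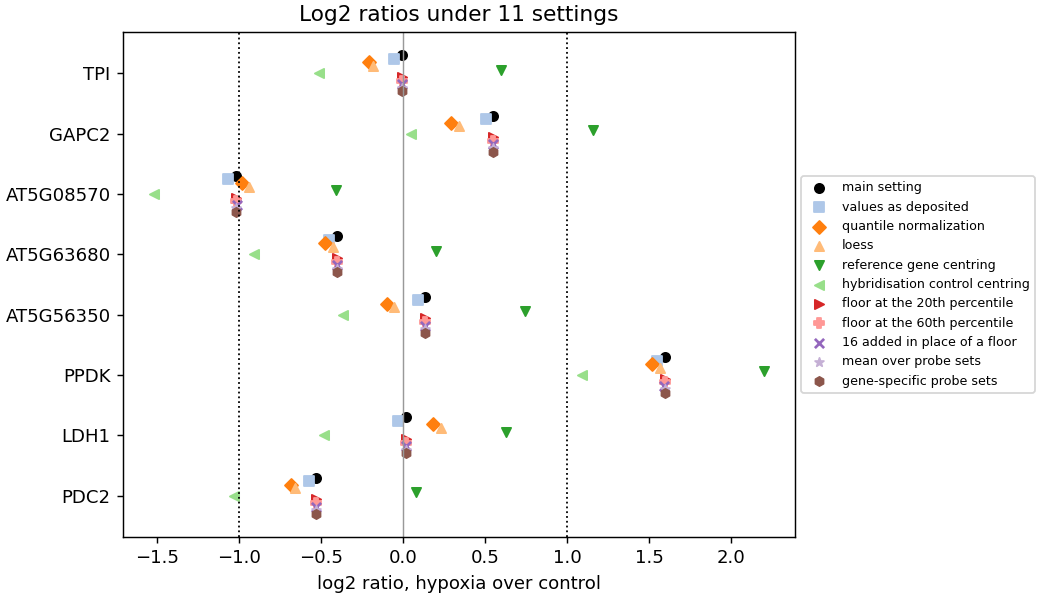
Log2 ratio of hypoxia over control for the 8 measured genes under 11 processing settings, with 1 symbol per setting and dotted lines at a 2-fold difference. PPDK lies right of the upper line in every setting, from 1.09 to 2.20, while AT5G08570 lies inside the lower line in 3 of them.

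The enzymes that lead pyruvate into fermentation stayed within 2-fold. LDH1, a lactate dehydrogenase, which reduces pyruvate to lactate, had intensities of 1216.7 and 1192.5 and a ratio of 0.02. PDC2, a pyruvate decarboxylase, which turns pyruvate into the acetaldehyde from which ethanol is made, went from 18046.1 to 12106, a ratio of -0.53 or 1.44-fold lower. PDC2 was below 0 in 10 of 11 settings. The exception was reference gene centring, at 0.08, and with hybridisation control centring it was at least 2-fold lower, at -1.03. LDH1 exceeded PDC2 by 0.55, little more than the 0.49 given above for a difference between probe sets. The gap was 0.55 to 0.89 over all 11 settings. Only quantile normalization, loess and 16 added in place of a floor could change it. LDH1 itself ranged from -0.48 to 0.62.

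A probe set shared by PDC3 and AT5G01320 was low in signal and went from 227.3 to 428, a ratio of 0.96 or 1.94-fold, just short of 2-fold. It cannot be assigned to either gene. ADH1 and PDC1, which the series design names as its markers of hypoxia, were not analysed here. In whole-cell RNA of this kind, fewer cells that express a gene and less of its RNA per cell cannot be told apart.

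**Figure D3:**
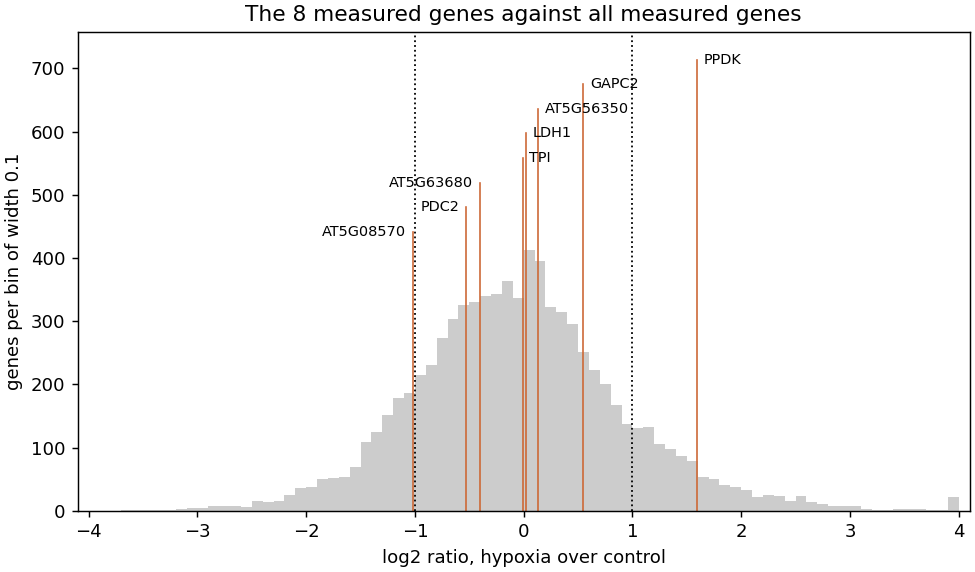
Histogram of the log2 ratios of all 7972 measured genes in bins of 0.1, with the 8 measured genes marked by vertical lines and dotted lines at a 2-fold difference. The 19 genes beyond 4 in either direction are drawn in the end bins. PPDK lies in the upper tail, above 94.8% of genes, AT5G08570 lies above 14.0%, and TPI and LDH1 lie near the centre.

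Other genes of the same routes were taken from 8 lists of 113 loci. The annotation used gives a single-gene probe set for only 27 of these loci, and 25 were measured. The larger part of these routes was therefore not analysed here. Past 2-fold lay 1 higher and 5 lower genes of the 25, which is 4% and 20%, beside 13.0% and 14.5% of all measured genes. Neither annotation table gives an enzyme name for many of these loci, which are therefore named by locus and list only.

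In the upper part of glycolysis, 4 of 18 listed genes were measured, with a median ratio of -0.46. AT1G12000 went from 1749.4 to 705.9, a ratio of -1.26, and AT1G20950 had a ratio of -0.87. AT1G76550 lay at -0.05, and AT5G42740 went from 4050.1 to 6105.7, a ratio of 0.64. These genes lay on both sides of 0, with 1 at least 2-fold lower, and the calls moved with the scaling. With reference gene centring AT1G12000 came within 2-fold at -0.66 and AT5G42740 was at least 2-fold higher at 1.25, and with hybridisation control centring AT1G20950 was at least 2-fold lower at -1.37. AT1G76550 lay above 0 with loess, quantile normalization and reference gene centring.

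Below it, the 2 other measured genes of cytosolic glycolysis lay past 2-fold in opposite directions. ALDH11A3, the NADP-dependent non-phosphorylating glyceraldehyde-3-phosphate dehydrogenase, which bypasses the step of GAPC2 without making ATP, went from 1879.2 to 4945.4, a ratio of 1.44 or 2.72-fold. It came just within 2-fold, at 0.94, with hybridisation control centring. ENOC, a cytosolic enolase, the enzyme class that makes phosphoenolpyruvate, went from 3311.6 to 1557.9, a ratio of -1.04, and 3 settings put it within 2-fold. The plastid list had 1 measured gene, AT1G56190, at 0.51, and the fermentation list had 1, the aldehyde dehydrogenase gene ALDH2C4, at 0.02.

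Genes for the entry of pyruvate into mitochondria lay below 0, from -0.62 to -0.15 for the 5 measured of 13 listed, beside 52.9% of all measured genes. None passed 2-fold as reported, but AT3G13930, AT1G54220 and AT4G22310 did with hybridisation control centring, at -1.12, -1.11 and -1.001. In that setting 31.0% of all measured genes were at least 2-fold lower. With reference gene centring AT4G22310, LTA3 and MAB1 lay above 0. As reported, the 5 measured genes were AT3G13930 at -0.62, AT1G54220 at -0.61, AT4G22310 at -0.50, the acetyltransferase gene LTA3 at -0.39 and MAB1 at -0.15. AT4G14695 was under the floor at 6.8 and 52.2.

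In the tricarboxylic acid cycle, which burns the acetyl group made from pyruvate, 10 of 12 measured genes had a ratio below 0, beside 52.9% of all measured genes. Past 2-fold lay 3 lower and 0 higher genes, and the median was -0.57. Over all measured genes 14.5% were lower and 13.0% higher by this rule. AT5G23250 went from 3647.9 to 906.7, a ratio of -1.96. AT5G65750 went from 2046.5 to 656.4, a ratio of -1.59, and AT2G20420 from 12055.6 to 4646.7, a ratio of -1.33. Scaling moved this list together with all other genes. With reference gene centring its median was 0.03 and 1 gene was at least 2-fold lower, beside 4.3% of all measured genes in that setting. There 6 of 12 lay below 0, beside 27.0% of all measured genes. With hybridisation control centring its median was -1.07 and 7 genes were at least 2-fold lower, beside 31.0% of all measured genes in that setting. There 11 of 12 lay below 0, beside 71.5% of all measured genes.

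Pairs of similar genes in this list differed to unequal degrees. IDH-V and IDH-VI, both isocitrate dehydrogenase genes, lay at -0.27 and -0.68, a difference of 0.40, which is less than the 0.49 given above for a difference between probe sets. AT5G55070 and AT4G26910 lay closer together than these, at -0.53 and -0.25. AT5G08300 and AT5G23250 also both lay below 0, at -0.61 and -1.96, while AT3G55410 and AT5G65750 lay at 0.33 and -1.59. SDH2-2, an iron-sulfur subunit gene of succinate dehydrogenase, went from 7103.4 to 4090.1, a ratio of -0.75. SDH2-1, another gene for that subunit, went from 14192.6 to 20707.3, a ratio of 0.59. SDH2-1 and AT3G55410 were the genes of this list above 0. They, AT5G08300, AT5G55070, AT4G26910 and the IDH genes were named after their values were seen.

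**Figure D4:**
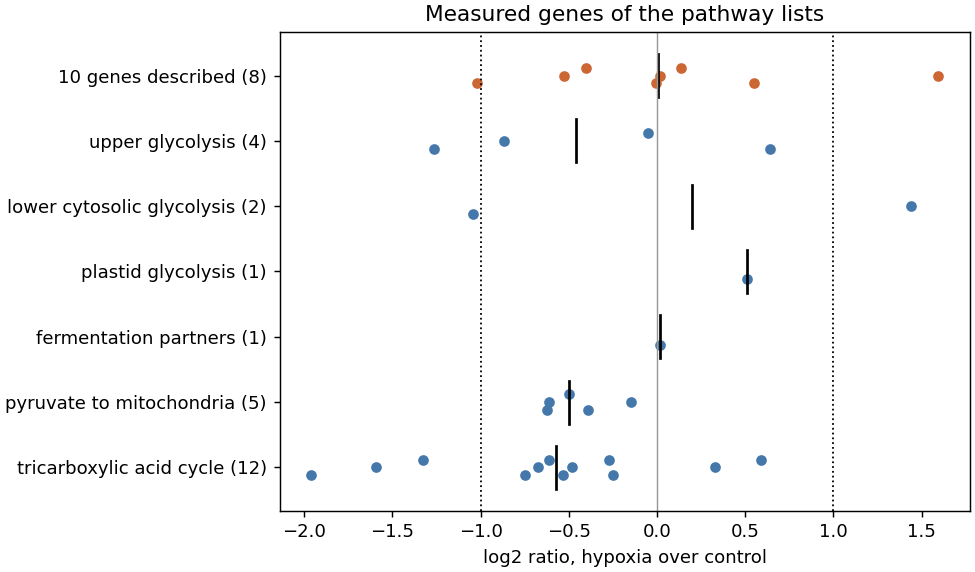
Log2 ratios of hypoxia over control for the 8 measured genes described here and for the 25 measured genes of 6 pathway lists, with 1 point per gene, a black bar at each median and dotted lines at a 2-fold difference. Numbers in brackets count measured genes, and 2 further lists had none. The 8 genes spread from -1.02 to 1.59 around a median near 0, and the tricarboxylic acid cycle list has its median at -0.57.

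For the lists of sucrose cleavage, with 10 genes, and of phosphoenolpyruvate and malate conversion, with 13, the annotation gives no single-gene probe set. Many probe sets have no gene in that annotation. This says nothing about whether the array reads these genes or about their expression.

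Some other measures moved between the arrays as well. The 5 mesophyll markers were all higher in hypoxia, with ratios from 0.75 to 1.41, beside 3757 of all 7972 measured genes above 0. Of the 5, 3 were at least 2-fold higher, beside 13.0% of all measured genes. The summed intensity of the 5 was 72872.8 in control and 133282 in hypoxia, of which RCA alone gave 35119 and 57111.2. Such sums join probe sets of unlike binding strength. Of 4 phloem markers only SWEET11 was measured, and it went from 212.4 to 1020.2, a ratio of 2.31. Of 4 guard cell markers 2 were measured. Their summed intensity was 327.7 in control and 503.2 in hypoxia, with GC1 under the floor in control. The annotation gives no single-gene probe set for any of the 4 epidermis markers. The part of these markers in the PPDK difference was not tested. All 18 hybridisation control probe sets, which read transcripts added at hybridisation, read higher after hypoxia, by a median ratio of 0.50. Reference genes lay the other way or near 0, at -0.91 for SAND, -0.61 for TIP41 and -0.03 for UBC21. The median of these 3 genes is the ratio of TIP41, so reference gene centring rests on that gene alone. The direction of a small ratio therefore holds only in relation to the rest of the genes.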

How the data were processed

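Both arrays hold 22810 probe sets, including 64 controls of the manufacturer. The deposited values are linear intensities, 1 per probe set, with GCOS 1.0 as the only tool that the submitters' processing notes name. Settings, detection calls and a genome build are not given in the sources used here. The authors appear to have scaled whole arrays, since the means with 2% of values trimmed at each end were 1500.1 and 1500.2.

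An older platform annotation paired 13513 probe sets with 1 gene and 503 with several. The rest of the 22746 probe sets other than controls had no gene in it. A gene absent from these results may therefore still have its own probe set on the array. Of the probe sets paired with 1 gene, 13436 matched a RefSeq gene table (TAIR10.1) through Entrez identifiers, and no coordinates are printed. Arrays were scaled to the same median, the geometric mean of their medians without controls. The floor was the 40th percentile over both scaled arrays, and lower values were set to it. Log2 ratios were taken from the deposited intensities so treated. For several probe sets of a gene, the one with the highest mean log2 value was used. Scripts ran in Python 3.11.15 with numpy 2.4.6 and pandas 2.3.3, and the ratio step was checked on simulated arrays.

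The number of arrays, 1 per group, limits the precision, and no test was run. The genes and lists were chosen with earlier results of these data known. Named genes were all 10 chosen genes and the measured genes of each pathway list, or its 4 largest absolute ratios where more than 6 were measured, beside cell type markers and reference genes. The 10 alternatives were 5 other scalings, 2 other floors, 16 added in place of a floor, and 2 other choices of probe set.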

Additional observations from a re-analysis of the deposited data

How the results depend on the processing

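No paired analysis was possible because each group has 1 array, and for the same reason no replicate could be left out. Of the 10 genes, 1 lay past 2-fold in each direction. The number higher became 2 with reference gene centring, where GAPC2 was added at 1.16, and 2 with a 20th percentile floor, where AT3G25960 was added. In those settings 25.2% and 20.2% of all measured genes were at least 2-fold higher. The number lower became 0 with loess, quantile normalization and reference gene centring, and 2 with hybridisation control centring, where PDC2 was added. In the same order, 12.8%, 13.9%, 4.3% and 31.0% of all measured genes were at least 2-fold lower in these settings. The median ratio of the measured genes was 0.61 with reference gene centring and -0.50 with hybridisation control centring. Both centrings shift all ratios together: over all genes measured, the median moved by 0.47 and -0.48. The share of higher genes among all that passed 2-fold was 47.3% as reported, 85.4% and 17.7% with these centrings and 61.8% with a 20th percentile floor. Among the pathway genes, 4 higher and 1 lower passed 2-fold with reference gene centring, beside 25.2% and 4.3% of all measured genes in that setting. With hybridisation control centring 0 higher and 13 lower did, beside 6.7% and 31.0% of all measured genes. In other settings these pathway counts stayed within 1.5 times those reported. TPI was above 0 in 1 of 11 settings, AT5G63680 in 1, AT5G56350 in 8, LDH1 in 9 and GAPC2 in 11. Probe set choice could not change the ratios of the 10 genes, which have 1 gene-specific probe set each. Signal over background limits AT3G04050 and AT3G25960, which have no ratio at the main floor.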
